A study of Mus musculus with 4 samples.

Results

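The genes that present peptides to T cells, MHC class I and class II, were followed in skeletal muscle of mice without corticotropin-releasing factor receptor 2 (Crhr2) and of wild-type littermates. The set comprised 9 genes: the class I heavy chains H2-K1 and H2-D1, the class I light chain B2m, the peptide transporter subunits Tap1 and Tap2, the class II chains H2-Aa, H2-Ab1 and H2-Eb1, and the invariant chain Cd74. Every probe set whose platform annotation named at least 1 of them was taken, without regard to its level, which gave 17 of the 12422 probe sets tested, 13 for class I and 4 for class II. All 9 genes were represented, of 8251 genes with a probe set of their own on the array. Among the 17, 14 named a single gene and 3 named 4, 5 or 10 genes of the H2 family and its neighbours.

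Crhr2-/- mice (KO) were compared with Crhr2+/+ littermates (WT). Both groups were male, 6.5 months old, untreated, fed chow and of mixed C57BL/6 and 129 descent, and the gastrocnemius and soleus muscles were dissected as one. Each genotype had 4 mice, whose RNA made up 2 pools of 2 animals, and every pool was read on 1 Affymetrix U74Av2 array, an oligonucleotide array with 1 colour, so n = 2 pools per genotype. Genotypes were read from the sample titles because the labels hold the genotype in the tissue field. The labels do not describe the Crhr2 allele itself. The limma p-values and standard errors rest on the spread between pools, not single mice. The fit draws that spread partly from other probe sets of like intensity. A standard error can therefore be smaller or larger than a probe set's own pools would give, and for the class II probe sets it was smaller.

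Class I molecules sit on nearly all nucleated cells and carry peptides from the cytosol. Their heavy chain pairs with beta-2-microglobulin (B2m), and peptides reach them through the TAP transporter. Class II molecules are heterodimers of an alpha and a beta chain, made chiefly by B cells, dendritic cells and macrophages; the invariant chain Cd74 guides them to the endosome. Healthy muscle fibres have little class I on their surface, and both classes are induced by interferon gamma. In bulk muscle RNA, fewer antigen-presenting cells and less transcript per cell cannot be told apart.

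The promoters of class II, class I heavy chain and B2m genes carry a shared control module, in which the Y box, a CCAAT motif read as ATTGG on the coding strand and bound by NF-Y, lies downstream of the X box, and the class II transactivator CIITA acts through this module. The upstream windows of all 6 members with a window here are shown, so that those with and without the letters marked below can be compared. Each is the 250 bases before the RefSeq start site, 5′ to 3′ on the coding strand, build GRCm38.p6, credited to RefSeq. Capitals mark, on either strand, the motif CCAAT of the Y box, the motif TGACG (the core of the cAMP response element), GGATTCC (the core of the kB element of class I enhancers) and GAAACTG (a core of interferon response elements). The letters were chosen after the windows had been read, and adjacent matches share bases only in H2-Aa, where TGACG overlaps its own reverse complement.
H2-Aa, chr17:34287824-34288073, minus strand: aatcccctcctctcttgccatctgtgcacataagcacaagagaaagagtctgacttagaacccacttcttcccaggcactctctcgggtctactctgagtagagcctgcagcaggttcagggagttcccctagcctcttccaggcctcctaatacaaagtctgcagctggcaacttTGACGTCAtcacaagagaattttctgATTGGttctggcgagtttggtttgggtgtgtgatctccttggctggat
H2-Eb1, chr17:34305617-34305866, plus strand: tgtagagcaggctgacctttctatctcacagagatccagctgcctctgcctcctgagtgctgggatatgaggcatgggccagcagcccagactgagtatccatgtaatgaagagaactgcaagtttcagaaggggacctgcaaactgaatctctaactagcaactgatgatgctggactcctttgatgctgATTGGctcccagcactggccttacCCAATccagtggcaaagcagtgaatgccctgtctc
H2-K1, chr17:34000334-34000583, minus strand: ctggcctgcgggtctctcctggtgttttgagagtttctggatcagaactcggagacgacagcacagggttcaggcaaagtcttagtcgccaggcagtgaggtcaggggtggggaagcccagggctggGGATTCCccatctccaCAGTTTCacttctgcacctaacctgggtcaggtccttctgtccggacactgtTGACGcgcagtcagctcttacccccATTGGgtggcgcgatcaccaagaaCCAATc
H2-D1, chr17:35262844-35263093, plus strand: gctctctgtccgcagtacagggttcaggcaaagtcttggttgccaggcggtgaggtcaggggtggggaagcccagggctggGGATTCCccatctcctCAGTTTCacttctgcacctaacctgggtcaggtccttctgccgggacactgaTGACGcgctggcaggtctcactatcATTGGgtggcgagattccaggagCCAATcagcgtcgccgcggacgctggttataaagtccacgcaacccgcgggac
B2m, chr2:122147437-122147686, plus strand: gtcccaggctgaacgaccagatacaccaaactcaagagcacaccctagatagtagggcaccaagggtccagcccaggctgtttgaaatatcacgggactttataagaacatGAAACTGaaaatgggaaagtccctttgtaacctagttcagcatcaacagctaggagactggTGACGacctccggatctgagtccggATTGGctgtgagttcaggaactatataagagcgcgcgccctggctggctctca
Tap1, chr17:34187306-34187555, plus strand: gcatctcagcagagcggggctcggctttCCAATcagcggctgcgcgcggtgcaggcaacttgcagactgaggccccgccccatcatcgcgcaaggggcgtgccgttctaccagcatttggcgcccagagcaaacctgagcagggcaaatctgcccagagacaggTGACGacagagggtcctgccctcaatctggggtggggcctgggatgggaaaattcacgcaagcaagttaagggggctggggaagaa

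For H2-K1 RefSeq lists start sites 14 bases apart, and the downstream one was used. CCAAT stood in all 6 windows, against 33.8% of 32851 such windows. TGACG stood in 5 of the 6, all but H2-Eb1, against 17.8% of windows. In H2-K1, H2-D1 and B2m the first base of TGACG lay 25 bases before the first base of ATTGG, and in H2-Aa 26 bases before it, while H2-Eb1 and Tap1 did not hold this arrangement. That arrangement, at a distance of 25 or 26 bases on either strand, was found in 50 of the 32851 windows (0.152%). The letters and the distance were set with the members' windows already read, so this share is no test of them. Other letters of the X box were not searched for. The lack of this arrangement in H2-Eb1 therefore does not show that the module is missing there. The H2-K1 and H2-D1 windows shared 169 of 204 bases (82.8%) when set against each other at the kB core. GGATTCC stood in these alone of the 6, against 3.17% of all windows, and GAAACTG in H2-K1, H2-D1 and B2m, against 4.99%. These matches describe the letters of the windows and show no binding.

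The targeted gene was lower on both KO arrays by its brighter probe set, at 100.4 and 75.1 on KO arrays against 154 and 192 on WT arrays, while its dimmer one overlapped at 36.7 and 22.7 against 18.8 and 45.3. Skeletal muscle identity was evident on every array: all 13 measured muscle genes were above the level of the median probe set, with skeletal actin (Acta1) at 19099 and 21770.3 on KO arrays against 20692 and 19525 on WT arrays. Array medians lay between 67.6 and 71.2 arbitrary intensity units. Ratios of 3′ to 5′ control signal, which follow RNA integrity, were 0.729 and 0.866 on KO arrays against 0.624 and 0.686 on WT arrays for actin, and 1.04 and 0.988 against 0.889 and 0.914 for Gapdh. Pancreatic and hepatic genes also differed between the arrays. All 12 exocrine pancreas markers were highest on KO replicate 1, where 2708 of all 12422 probe sets were highest. They summed to 13835 and 4162 on KO arrays against 1885 and 1840 on WT arrays. Of 14 liver markers, 9 were highest on WT replicate 2, against 3167 of all 12422. Among these, Alb read 78.7 and 95.2 against 230 and 1016. The brightest liver markers, Cyp2e1 and Hp, were highest on WT replicate 1, Cyp2e1 at 1008 and 1095 against 1484 and 563.

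The 4 class II probe sets had higher log2 means in KO muscle, but no difference passed the test and none separated the genotypes. The invariant chain gene Cd74 read 1668 and 2279.7 on KO arrays against 2231 and 804 on WT arrays. The low value belonged to WT replicate 2 alone, and the other WT array lay between the KO arrays. Cd74 averaged 1974 ± 433 in KO and 1517 ± 1009 in WT (SD, n = 2 each), a difference of 0.54 ± 0.44 on the log2(intensity + 14) scale (SE, limma adjusted p = 0.908). H2-Aa, the alpha chain of the A heterodimer, read 627 and 997 on KO arrays against 970.5 and 345 on WT arrays. Here too WT replicate 2 was lowest, and KO replicate 2 and WT replicate 1 were close to each other. The log2 difference of H2-Aa was 0.44 ± 0.47 (limma adjusted p = 0.914).

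H2-Ab1, the beta chain that pairs with H2-Aa, read 302 and 413 on KO arrays against 368 and 193 on WT arrays. Its arrays stood in the same order as those of Cd74 and H2-Aa, with a log2 difference of 0.39 ± 0.31 (limma adjusted p = 0.908). H2-Eb1, the beta chain of the E heterodimer, read 357 and 529.5 on KO arrays against 531 and 268 on WT arrays. WT replicate 1 was marginally above KO replicate 2 for this gene, so the extremes of the range were both WT, and the log2 difference was 0.20 ± 0.33 (limma adjusted p = 0.952). H2-Ea, the alpha chain that would pair with H2-Eb1 and that C57BL/6 mice are known not to transcribe, was dim on all arrays, at 12.7 and 11.5 in KO against 6.22 and 7.20 in WT.

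**Figure D1:**
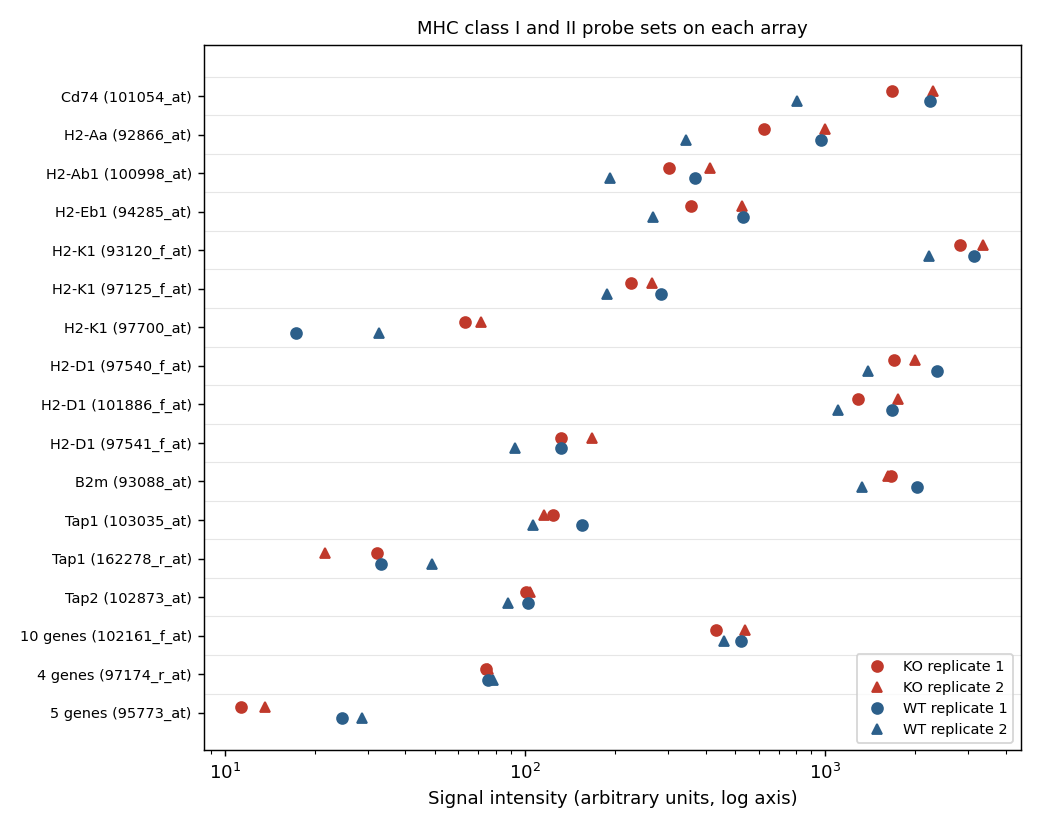
Signal intensity (arbitrary units, log axis) of the 17 probe sets on each array, with KO in red above WT in blue and replicate 1 as circles, replicate 2 as triangles. WT replicate 2 was the lowest array for all 4 class II probe sets, for Cd74 at 804 where the other 3 arrays read 1668 to 2279.7.

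Class I heavy chain signals were nearer to each other across the arrays. The brightest H2-K1 probe set (93120_f_at) read 2813 and 3368 on KO arrays against 3141 and 2226 on WT arrays, a log2 difference of 0.22 ± 0.18 (limma adjusted p = 0.908). WT replicate 2 was again lowest and the groups overlapped. The second H2-K1 probe set (97125_f_at) read 225 and 264 against 285 and 188, with the KO arrays inside the WT range. The suffix f in these names marks probe sets that can bind several members of a gene family, so H2-K1 and H2-D1 signals may include each other and the Q and T region genes.

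The third H2-K1 probe set (97700_at) behaved differently from the other probe sets of that gene. It was dim, at 62.9 and 71.5 on KO arrays against 17.3 and 32.6 on WT arrays, with its mean over the 4 arrays below the level of the median probe set. Both KO arrays were above both WT arrays, a log2 difference of 1.09 ± 0.37 (limma unadjusted p = 0.0261, adjusted p = 0.846; exact two-sided permutation p = 0.333, the smallest that 2 against 2 allows). The difference was 0.61 with 4 times the added constant and 1.497 with none. The other 2 H2-K1 probe sets, at higher levels, did not separate the genotypes, so the probe sets of H2-K1 disagreed.

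H2-D1 was measured by 3 probe sets that overlapped between genotypes. The brightest (97540_f_at) read 1690.1 and 1990.1 on KO arrays against 2352 and 1392 on WT arrays, so both KO arrays lay inside the WT range (log2 difference 0.02 ± 0.24, limma adjusted p = 0.994). The second (101886_f_at) read 1283 and 1753 against 1674 and 1107. The dimmest (97541_f_at) read 132 and 167 against 132 and 92.5, with a log2 difference of 0.38 ± 0.26 (limma adjusted p = 0.908). On all 3, WT replicate 2 was lowest.

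B2m, the light chain common to all class I molecules, differed least among the single-gene probe sets. It read 1652 and 1618 on KO arrays against 2031 and 1332 on WT arrays, means of 1635 ± 23.6 in KO and 1681 ± 494 in WT (SD, n = 2 each). The KO arrays nearly coincided and lay inside the WT range, and the log2 difference was -0.01 ± 0.20 (limma adjusted p = 0.996). B2m lies on chromosome 2, apart from the H2 genes of chromosome 17 and from Cd74 on chromosome 18, and its lowest array was also WT replicate 2.

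The TAP transporter subunits were modest in signal. Tap1 (103035_at) read 124 and 116 on KO arrays against 155 and 107 on WT arrays, a log2 difference of -0.09 ± 0.25 (limma adjusted p = 0.969). Its other probe set (162278_r_at) was dim, at 32.1 and 21.6 against 33.0 and 49.2, with both KO arrays below both WT arrays and WT replicate 2 highest. Tap2 read 101 and 104 against 102 and 87.6, the narrowest spread of any single-gene probe set of the group above the median level (log2 difference 0.10 ± 0.25, limma adjusted p = 0.967). The 250-base Tap1 window reaches past the start site of Psmb9, which encodes a subunit of the immunoproteasome. Their start sites lie 226 bases apart on opposite strands. Psmb9 read 108 and 133 on KO arrays against 170.1 and 15.8 on WT arrays, so WT replicate 2 was lowest for Psmb9 and for the brighter Tap1 probe set, but not for the dim one.

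Of the 3 probe sets that named several genes, the one for 10 genes including H2-K1 and H2-D1 (102161_f_at) read 433 and 541 on KO arrays against 525 and 461 on WT arrays. Its genotype ranges overlapped, with the KO arrays at both ends. The one for H2-Q9, H2-Q7, H2-Q10 and H2-K1 (97174_r_at) was flat, at 74.05 and 75.3 against 75.3 and 78.2. The one for H2-Q9, H2-Q7, H2-Q4, H2-Q1 and H2-D1 (95773_at) was dim, at 11.4 and 13.6 against 24.5 and 28.6, with both KO arrays below both WT arrays (log2 difference -0.61 ± 0.29, limma adjusted p = 0.908). That difference was -0.27 with 4 times the added constant and -1.09 with none.

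Counted together, 11 of the 17 probe sets had higher log2 means in KO and 6 had lower ones (background 50.0% higher), with a median log2 difference of 0.10 beside 0.00 for all probe sets. No member passed the limma test (0 of 17, background 0.0% of 12422 probe sets), and at an unadjusted p under 0.05 there was 1 of 17, the dim H2-K1 probe set, against 5.43% of all. The genotypes did not overlap for 3 of 17 against 34.6% of all probe sets, 1 of them higher (background 17.0%) and 2 lower (background 17.6%) in KO. All 3 were the members below the level of the median probe set, and none of the other 14 separated the genotypes. The class I median was 0.02 over 13 probe sets, 7 higher and 6 lower, and the class II median 0.41 over 4, all higher.

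**Figure D2:**
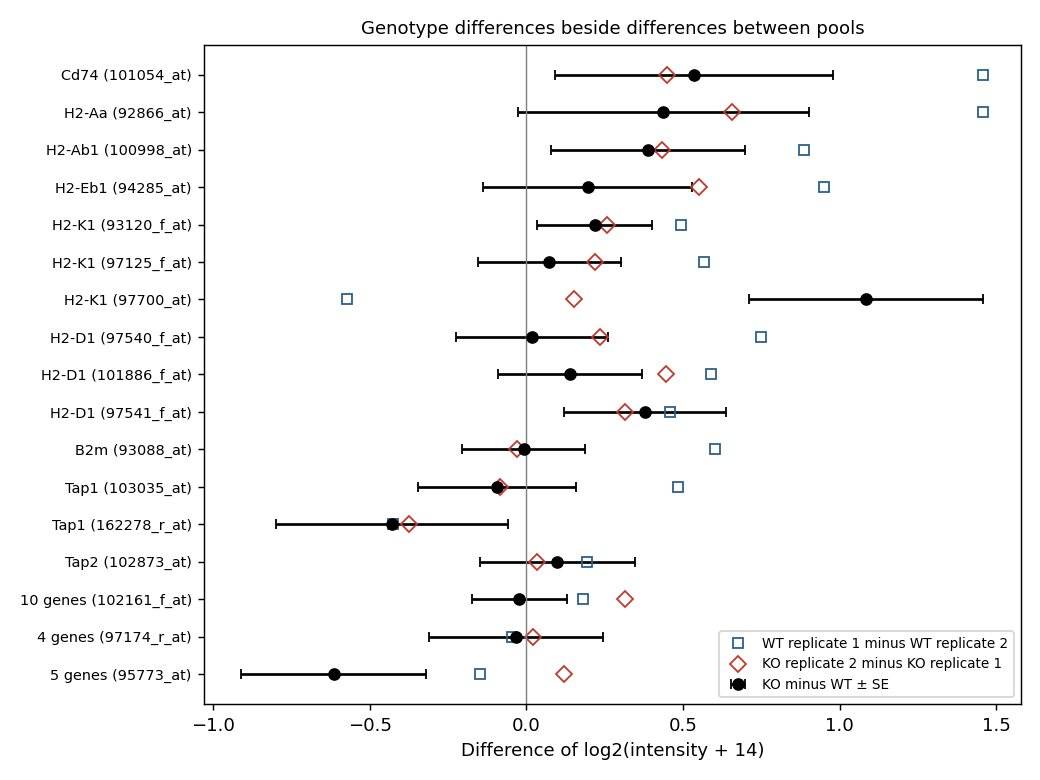
Differences of log2(intensity + 14) for each probe set: KO minus WT with its standard error (black circles), KO replicate 2 minus KO replicate 1 (red diamonds) and WT replicate 1 minus WT replicate 2 (blue squares). For all 4 class II probe sets the WT pools differed from each other by more than the genotypes did, for Cd74 by 1.46 against 0.54.

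For 14 of the 17 probe sets the WT pools differed from each other by more than the genotypes did on the log2 scale, against 58.1% of all probe sets. The 3 exceptions were the dim members that separated the genotypes. WT replicate 1 exceeded WT replicate 2 in 13 of 17 probe sets, where 48.2% of all probe sets did so, and in 13 of the 14 above the median level. The ratio was 2.78 for Cd74, 2.82 for H2-Aa, 1.98 for H2-Eb1 and 1.91 for H2-Ab1. It was 1.41 for the brightest H2-K1 probe set, 1.69 for the brightest of H2-D1, 1.52 for B2m and 1.17 for Tap2. The median log2 difference between WT pools was 1.20 for class II and 0.46 for class I, against -0.01 for all probe sets. Between KO pools, replicate 2 exceeded replicate 1 by a median of 0.50 for class II and 0.15 for class I, against 0.04 for all. WT replicate 2 was the lowest array for 12 of the 17 members, where 24.1% of all probe sets were lowest there. KO replicate 2 was the highest for 9 of 17, against 29.1%. Several of the 17 probe sets can read the same H2-K1, H2-D1 or Tap1 transcripts, so counts over them, here and above, are not counts of separate readings.

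The direction of the comparison depended on single arrays of both genotypes. Without WT replicate 2 all 4 class II probe sets were lower in KO, with a median of -0.24, and 14 of 17 members were lower. Without WT replicate 1 all 4 were higher, with a median of 0.999, and 14 of 17 members were higher. Without KO replicate 2, 8 of 17 members were higher and 9 lower, H2-Eb1 stood at -0.08, and the medians were 0.14 for class II and -0.04 for class I. Without KO replicate 1, 12 were higher and 5 lower, and the class II median was 0.68. Cd74 differed by 1.26 without WT replicate 1 (limma adjusted p = 0.819) and by -0.19 without WT replicate 2 (limma adjusted p = 0.972). With 1 array left in a group, that array is assumed to vary like the others.

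**Figure D3:**
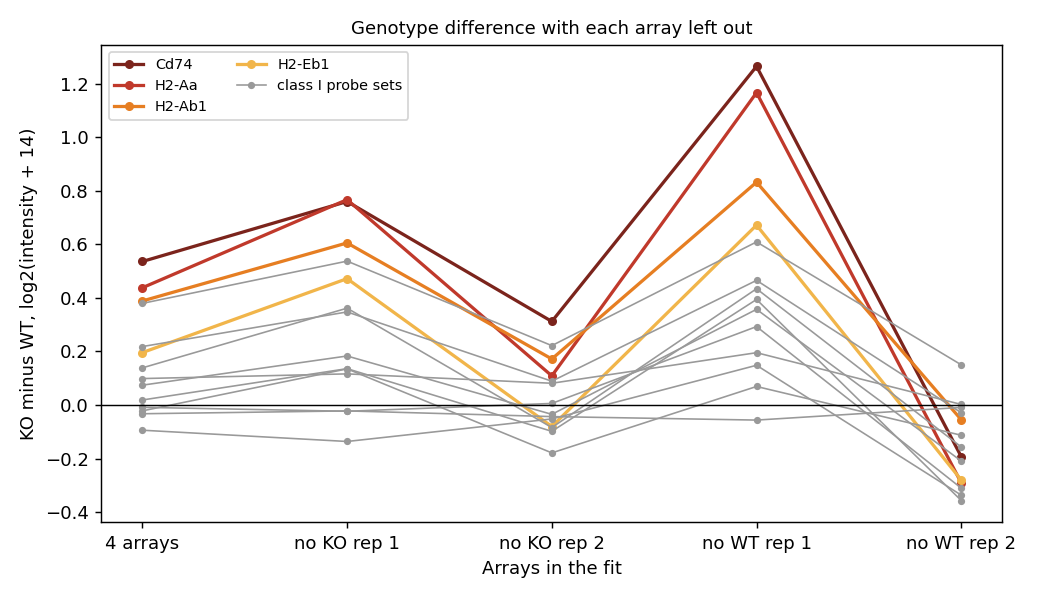
KO minus WT difference of log2(intensity + 14) for the 14 probe sets above the median level, fitted on 4 arrays and with each array left out in turn; class II genes are coloured and class I probe sets grey. Class II genes stood at 0.20 to 0.54 on 4 arrays, at 0.67 to 1.26 without WT replicate 1 and at -0.29 to -0.06 without WT replicate 2.

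Other genes of antigen presentation were read from 4 lists, with 1 probe set per gene. Over all probe sets 5.43% had an unadjusted p under 0.05, so a single such gene in a list of 8 to 13 differs from that share by less than 1 gene. Of 12 further class II chains and loading factors, 9 were higher and 3 lower in KO (median log2 difference 0.27), 0 passed the limma test and 1 had an unadjusted p under 0.05. That was Ifi30, a thiol reductase of the endosome, at 138 and 162 on KO arrays against 95.0 and 22.5 on WT arrays (log2 difference 1.38 ± 0.52, limma adjusted p = 0.862). H2-DMa, a chain of the peptide exchange factor, read 318 and 376 against 326 and 209, and H2-Ob, a chain of its inhibitor, 86.0 and 78.1 against 58.8 and 48.3. WT replicate 2 was lowest for 9 of the 12.

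Of 8 genes of class I loading and peptide supply, 7 were higher and 1 lower (median 0.17), 0 passed and 1 had an unadjusted p under 0.05. Pdia3, the oxidoreductase of the loading complex, read 193 and 163 on KO arrays against 128 and 115 on WT arrays (log2 difference 0.50 ± 0.20, limma adjusted p = 0.908). Canx, the chaperone of new heavy chains, read 164 and 199 against 113 and 185, and Psmb8, another immunoproteasome subunit, 285 and 325 against 314 and 209. Pdia3 separated the genotypes, while Canx and Psmb8 overlapped.

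Of 12 further class I and class I-like genes, 6 were higher and 6 lower (median -0.06), 0 passed and 1 had an unadjusted p under 0.05. H2-T24 was dim, at 44.7 and 23.2 on KO arrays against 12.0 and 10.6 on WT arrays. Hfe, a class I-like regulator of iron uptake, read 175 and 119 against 203 and 175, and Mr1, which presents microbial metabolites, 58.2 and 72.2 against 77.1 and 112. For both, the KO arrays were the lower, for Hfe by a margin lost in rounding, whereas H2-T24 was higher on both KO arrays.

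Over the 35 other probe sets that name an H2 gene, those of the lists included, 25 had higher and 10 lower log2 means in KO (median 0.18), 0 passed the limma test and 2 had an unadjusted p under 0.05, close to the 5.43% of all. These 2 went in opposite directions: H2-T24 was higher in KO, and H2-M1, which was in none of the lists, was lower. H2-M1 was dim, at 6.48 and 10.1 on KO arrays against 31.7 and 50.5 on WT arrays (log2 difference -1.29 ± 0.34, limma adjusted p = 0.803). WT replicate 2 was the lowest array for 20 of the 35, against 24.1% of all.

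Regulators of these genes were 8 higher and 5 lower of 13 (median 0.11), 0 passed and 1 had an unadjusted p under 0.05. The CCAAT-binding NF-Y subunits had differences of opposite sign, and none passed. Nfyb read 171.1 and 173 on KO arrays against 236 and 247 on WT arrays (log2 difference -0.46 ± 0.16, limma adjusted p = 0.846), Nfya 101.0 and 91.2 against 68.0 and 57.3 (0.52 ± 0.28, adjusted p = 0.908), and Nfyc overlapped. Ifng, the gene of interferon gamma, was dim, at 8.97 and 5.41 against 3.13 and 3.97. Ciita, named here after its values were seen, was below the level of the median probe set at 55.0 and 68.4 against 47.5 and 48.4. Of 17 interferon-induced genes measured, 12 were higher and 5 lower in KO (median 0.11) and 0 passed. They were lowest on WT replicate 2 in 4 cases, and their median difference between the WT pools was -0.02, beside 1.20 for class II. Only 7 of these 17 genes were above the level of the median probe set, and differences of dim probe sets are understated. WT replicate 1 exceeded WT replicate 2 for 8 of the 17, and single genes ranged from -0.94 for Cxcl10 to 0.96 for Ifi47. A part of interferon in the class II values was not tested.

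Markers of antigen-presenting and other cells were set beside the members on each array. Of 13 B cell markers, 9 were lowest on WT replicate 2, and 8 were above the median level. Their summed intensity was 3675 and 5009 on KO arrays against 5877 and 3518 on WT arrays, most of it from Ighm, the heavy chain of immunoglobulin M, at 2470.2 and 3505 against 4455 and 2919. Jchain, which joins polymeric immunoglobulins, read 203 and 273 against 304 and 90.0, and Cd79a, the signalling chain of the B cell receptor, 169 and 277 against 190.0 and 62.2. The order of arrays for Cd79a, with WT replicate 2 lowest and KO replicate 2 highest, was that of Cd74. Other B cell markers had other orders: 5 of the 13 were highest on KO replicate 2 and 5 on WT replicate 1. Ighm, the brightest, was lowest on KO replicate 1. Pou2af1, below the median level, was highest on WT replicate 2, at 49.1 and 5.13 on KO arrays against 40.4 and 68.1 on WT arrays.

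Of 20 macrophage and dendritic cell markers, 10 were lowest on WT replicate 2, and the summed intensity was 2685 and 3339.7 on KO arrays against 3267 and 2501 on WT arrays. The complement genes C1qc and C1qb and the growth factor receptor Csf1r were the brightest. C1qc read 317 and 408 against 501 and 311, whereas Csf1r was highest on WT replicate 2, at 265 and 333 against 329 and 384. T cell markers were faint, with 1 of 12 above the median level (Cd4, at 131 and 118 against 138 and 105), and summed to 553 and 711 against 737 and 471. Lymph node markers summed to 234 and 336 against 278 and 135 over 4 genes, mostly Ltb, while Glycam1, which marks their high endothelium, was dim at 16.7 and 19.0 against 15.8 and 12.3. Endothelial markers summed to 2141 and 2244 against 2163 and 2094, a narrow range. Single endothelial genes varied more: of 10, 2 were higher and 1 was lower on both KO arrays (background 17.0% and 17.6%). Skeletal muscle genes summed to 143929 and 157797 against 148056 and 149048. Within the muscle sum, Myh7 and Tnnt1 were lower on WT replicate 1 (1968 and 2338) than on WT replicate 2 (3666 and 3999). For 7 of the 13 muscle genes WT replicate 1 was the higher. No marker gene passed the limma test, none was at exactly 0 on any array, and the part of these cells in the MHC values was not tested.

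**Figure D4:**
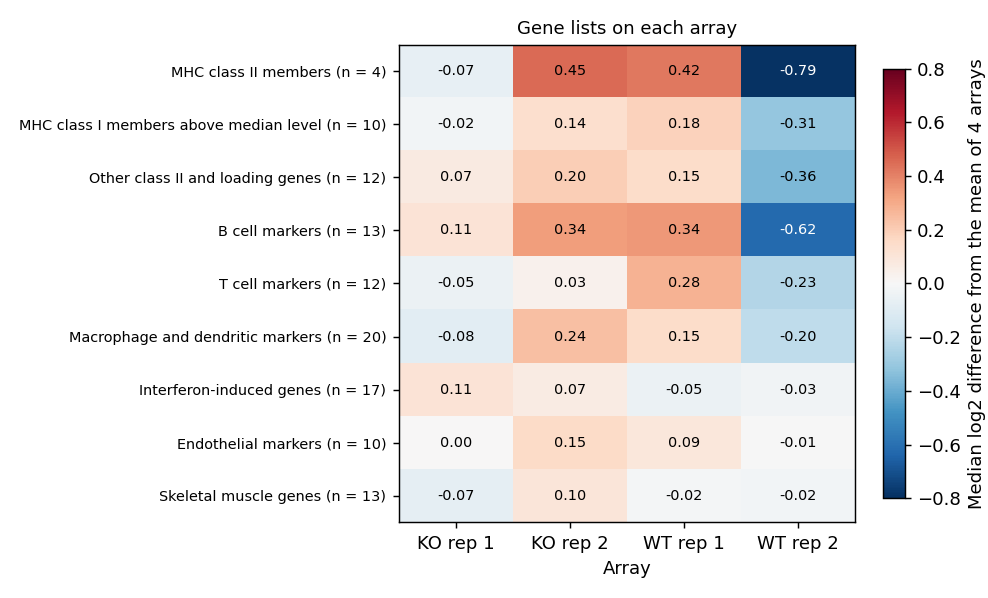
Median difference from the mean of the 4 arrays (log2 scale, colour and printed value) for the members and for other lists on each array, n being the probe sets in a list. Class II members stood at -0.79 and B cell markers at -0.62 on WT replicate 2, where skeletal muscle genes stood at -0.02.

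Likeness of pattern was measured as the root mean square distance between log2 values centred over the 4 arrays, among 5604 single-gene probe sets above the median level that are no members. Nearest to the mean class II profile were Selplg (distance 0.06), Sema4a (0.07), Abcd3 (0.09), Cd79b (0.09) and Dsp (0.10), and the 4 class II probe sets themselves lay at 0.11 to 0.13 from their own mean. Nearest to the shallower profile of the 13 class I probe sets were Hoxa13 (0.0089), Sgpl1 (0.0095), Denn2b (0.01), Serpina3n (0.01) and Traf4 (0.02). The 13 class I probe sets lay at 0.04 to 0.59 from that mean, the 3 dim ones at 0.37 to 0.59, so it describes few of them closely. With 4 arrays, many of 5604 probe sets can lie close to any profile of this depth, and no test was made.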

How the data were processed

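Per the labels' protocols, biotin-labelled RNA of 4 pools was hybridised to Affymetrix U74Av2 arrays. The deposited values are linear signal intensities, 1 per probe set and array, scaled by the authors between arrays (trimmed mean 200.2 on each, 2% removed at either end); their summary algorithm is not stated in the labels or the table. Of 12488 probe sets, 66 controls were left out and 12422 tested without a filter. Values were taken as log2(intensity + 14), the added 14 being 20% of the table's median, so differences of dim probe sets are understated. A genotype model (limma 3.58.1, R 4.3.3; lmFit, then eBayes following intensity) was used with Benjamini-Hochberg adjustment over all 12422 at 0.05, two-sided. The fit was run on simulated arrays with independent noise, to check that the mean differences put in came back. That check does not show what 2 pools per genotype can detect, or how shifts shared across probe sets act. The number of arrays sets the precision.

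Platform annotation gave 1 symbol to 10833 probe sets, several to 396 and none to 1193; symbols were updated through gene identifiers of GRCm38.p6 (10817 found). Members and lists were chosen with earlier results of these data known. The rule for naming genes beside the members took the 3 genes of each pathway list with the smallest p and the 3 brightest of each marker list. Not all of these marker genes are named in the text. Those of endothelium and pancreas are left out, and of the T cell and muscle lists only Cd4 and Acta1 are given. Of the lymph node list Cxcl13 is left out. Other genes were named after their values were seen. Replicate numbers are shared between genotypes, but same-numbered arrays did not deviate together (correlation 0.0034 across probe sets). Alternatives were the added constant, a level filter, the scaling, the variance trend, a replicate block and leaving out each array.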

Additional observations from a re-analysis of the deposited data

How the results depend on the processing

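Other constants and quantile or median scaling changed the direction of no member. The variance trend, the level filter and the replicate block cannot change a probe set's difference, so its direction was no check of them. Under each of these settings, as in the main fit, 0 probe sets passed (limma). In the main fit 674 had an unadjusted p under 0.05. The level filter left 14 of the 17 members. With the replicate block 740 probe sets had an unadjusted limma p under 0.05. The class medians, 0.02 for class I and 0.41 for class II, were bound to be the same with the block as without it. Directions depended on single arrays. With 1 array left out, the class I median ranged from -0.16 to 0.29 and the class II median from -0.24 to 0.999, and the count stayed at 0. The ranges were -0.19 to 1.26 for Cd74, -0.29 to 1.17 for H2-Aa, -0.055 to 0.83 for H2-Ab1, -0.28 to 0.67 for H2-Eb1, -0.31 to 0.29 for B2m and -0.34 to 0.15 for Tap1 (103035_at). They were -0.029 to 0.47 and -0.21 to 0.36 for H2-K1 (93120_f_at and 97125_f_at), -0.36 to 0.39 and -0.16 to 0.43 for H2-D1 (97540_f_at and 101886_f_at) and -0.18 to 0.13 for the probe set of 10 genes. Without a change of sign they were 0.15 to 0.61 for H2-D1 (97541_f_at), 0.80 to 1.37 for H2-K1 (97700_at), 0.0019 to 0.20 for Tap2, -0.64 to -0.22 for Tap1 (162278_r_at), -0.69 to -0.54 for 95773_at and -0.06 to -0.01 for 97174_r_at. The added constant moved the 3 dim members: with 4 times it and with none, 97700_at stood at 0.61 and 1.497, 95773_at at -0.27 and -1.09 and 162278_r_at at -0.23 and -0.62. Both class medians were lowest without WT replicate 2 and highest without WT replicate 1; the cause was not tested. Detection calls were not used here, so the dim members have no stated limit of detection.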
